A study of Mus musculus with 12 samples.

Results

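The enzymes described here interconvert retinol (vitamin A alcohol) and retinal, and they were followed through mouse stomach organoids in which Wnt signalling was left on or was inhibited. The 10 genes were taken by name: the cytosolic alcohol dehydrogenases Adh1, Adh5 and Adh7, and the membrane-bound or organellar short-chain dehydrogenases Rdh10, Rdh11, Rdh13, Rdh14, Dhrs3, Dhrs4 and Dhrs9. They were 10 of 55421 genes counted, and all 10 were among the 16152 genes tested. Vitamin A reaches cells as retinol. Alcohol dehydrogenases and the NAD-dependent short-chain dehydrogenases oxidise it reversibly to retinal, and aldehyde dehydrogenases then oxidise retinal irreversibly to retinoic acid, the ligand of the nuclear retinoic acid receptors. NADPH-dependent short-chain enzymes work the other way and reduce retinal back to retinol, so the balance of the enzyme types bears on how much retinal a cell holds. Adh7 is known for its abundance in the epithelium of the upper digestive tract, stomach included.

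RNA was measured in 12 libraries from organoids, which are hollow epithelial cultures grown from isolated gastric glands in Matrigel. All were wild-type mouse, 3 lines (8025, 8026 and 8028) from the corpus, the acid-secreting body of the stomach, and 3 from the antrum, its distal part, each in a vehicle and an inhibited culture, which gave 4 groups of 3. From day 4 after passage, vehicle cultures received DMSO in the normal medium, which holds 50% L-WRN conditioned medium (a source of Wnt3a, R-spondin and noggin). Inhibited cultures received the tankyrase inhibitor XAV939 (labelled 1 mM) without exogenous Wnt and R-spondin and with 100 ng/mL Noggin, so the compound and the medium change cannot be told apart. RNA was taken after 24 hours. Corpus medium was made with 20% fetal bovine serum and antral medium with 10%, and the regions cannot be told apart from their serum either. The labels call the lines independent but do not tie a line to an animal, so p-values measure the spread between these lines.

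Library totals ran from 18858022 to 31656696 counts, and 3 counts, taken as the detection floor, were worth 0.0889 to 0.177 CPM (counts scaled to a common library total by TMM). Genes with ribosomal RNA-like sequence took 17.2% of counts in the antral vehicle library of line 8025 and 6.87% in that of line 8028, against 0.839% to 3.45% in the other 10 libraries. The Wnt target Axin2 averaged 68.8 CPM in corpus vehicle and 9.27 CPM in corpus inhibited libraries, and 75.5 and 12.4 CPM in the antral ones, and the stem-cell receptor Lgr5 fell from 48.2 to 1.00 CPM and from 45.0 to 1.5 CPM (the highest adjusted p of these 4 changes by edgeR was 0.000864, for Axin2 in antrum). The corpus inhibited library of line 8028 kept the most Axin2, 18.7 CPM against 3.71 and 5.39 CPM in lines 8025 and 8026. All 9 gastric epithelial markers were present in every group. The parietal markers Atp4a and Atp4b were at most 1.56 and 0.0376 CPM and the antral hormone Gast at most 0.167 CPM in any library. The antral factor Pdx1 lay between 19.8 and 47.9 CPM over all 12 libraries, corpus included. Fibroblast markers summed to at most 1.47 CPM, smooth muscle and nerve markers to at most 2.58 CPM and enteroendocrine markers to at most 6.23 CPM. Immune markers summed to 29.1 to 39.2 CPM in corpus vehicle, 16 to 52.2 CPM in corpus inhibited, 10.2 to 28.2 CPM in antral vehicle and 18.2 to 28.4 CPM in antral inhibited libraries, nearly all from the lysosomal gene Cd68 (9.56 to 50.6 CPM), with Ptprc at most 0.86 CPM and Lyz2 at most 0.0319 CPM. Endothelial markers summed to 3.63 to 17.2, 7.82 to 11.1, 2.42 to 6.61 and 2.89 to 6.02 CPM in the same order, mostly from Tek (1.59 to 16.5 CPM), with Pecam1 at most 0.86 CPM.

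For 8 of the 10 genes RefSeq gave a stretch of 250 bases before to 50 bases after a transcript start on GRCm38.p6, 12 such windows in all. The windows of the genes whose transcripts changed most (Adh7 and Dhrs9 upward, Adh1 downward in corpus) and a window of Dhrs3, chosen because it holds a TCF/LEF core, are printed to show the starts of these transcripts. Dhrs3 has 3 windows, of which the one at the earliest start holds no TCF/LEF core. Adh7 lies at chr3:138217523-138217822, Dhrs9 at chr2:69380212-69380511, Adh1 at chr3:138277335-138277634 and Dhrs3 at chr4:144892827-144893126, all on the plus strand and all 5′ to 3′, with motif matches in capitals. The Adh1 window starts inside the longer gene model used for positions below.
Adh7: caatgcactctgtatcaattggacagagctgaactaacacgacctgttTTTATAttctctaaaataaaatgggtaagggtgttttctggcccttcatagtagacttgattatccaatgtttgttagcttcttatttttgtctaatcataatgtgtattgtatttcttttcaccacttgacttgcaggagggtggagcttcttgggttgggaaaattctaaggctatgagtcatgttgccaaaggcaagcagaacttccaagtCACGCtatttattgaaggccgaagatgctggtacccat
Dhrs9: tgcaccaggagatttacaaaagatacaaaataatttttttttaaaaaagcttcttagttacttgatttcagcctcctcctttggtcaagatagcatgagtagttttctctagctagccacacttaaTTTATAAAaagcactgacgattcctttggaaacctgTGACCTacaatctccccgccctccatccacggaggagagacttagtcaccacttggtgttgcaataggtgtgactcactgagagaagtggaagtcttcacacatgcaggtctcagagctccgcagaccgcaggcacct
Adh1: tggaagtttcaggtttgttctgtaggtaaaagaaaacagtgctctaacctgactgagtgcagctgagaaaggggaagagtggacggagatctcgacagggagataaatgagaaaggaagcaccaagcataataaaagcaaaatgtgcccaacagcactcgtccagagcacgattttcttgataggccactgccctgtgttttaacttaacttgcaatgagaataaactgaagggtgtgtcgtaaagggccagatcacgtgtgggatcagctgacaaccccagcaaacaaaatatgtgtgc
Dhrs3: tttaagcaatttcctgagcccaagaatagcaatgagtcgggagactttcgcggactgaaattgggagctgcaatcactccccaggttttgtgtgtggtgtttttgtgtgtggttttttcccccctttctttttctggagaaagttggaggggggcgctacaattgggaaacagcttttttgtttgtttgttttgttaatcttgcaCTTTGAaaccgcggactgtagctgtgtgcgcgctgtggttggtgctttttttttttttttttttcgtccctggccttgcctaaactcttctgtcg

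Both strands were searched for a TCF/LEF core (TCAAAG), a retinoid receptor half-site (AGGTCA), a xenobiotic response core (GCGTG), an antioxidant response core (TGACNNNGC) and a TATA box (TATAAA). Of 32851 windows of this kind, 5257 held the TCF/LEF core, 5340 (16.3%) the half-site, 10639 (32.4%) the xenobiotic core, 4071 (12.4%) the antioxidant core and 4473 (13.6%) the TATA letters. The Adh7 window held the xenobiotic core on the minus strand from base 13 after the start and TATA letters on the minus strand at -202, far from where a TATA box sits. In the Dhrs9 window the half-site lay on the minus strand at -88, and overlapping TATA letters lay at -124 (minus strand) and -122 (plus strand). The Adh1 window held none of the 5 motifs, and the printed Dhrs3 window held the TCF/LEF core on the minus strand at -45. Rdh11, which passed in neither region, also held this core in a window, at -175. These are letter matches and nothing was measured at them.

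Wnt inhibition raised Adh7, Dhrs9 and Rdh10 in both regions, while the alcohol dehydrogenases Adh1 and Adh5 fell in corpus. The antral call of Rdh10 was lost in 6 of 20 alternative analyses, and the corpus call of Adh5 in 2 of 19. In corpus 5 of the 10 genes passed the test (3 higher, 2 lower), where 30.9% of all tested genes did (15.5% higher, 15.4% lower). In antrum 4 passed, all higher (Adh7, Dhrs9, Rdh10 and Dhrs3), where 29.7% of all tested genes did (16.3% higher, 13.4% lower). The median log2 change of the 10 genes was 0.17 in corpus and 0.21 in antrum, beside -0.037 and -0.044 over all tested genes. Of all calls, 50.1% in corpus and 55% in antrum were higher. With totals alone as the scale this was 26.4% and 44.4%, and the corpus median of all genes moved by -0.156. With upper quartile scaling the antral share was 43.6%. With line as a block 6 of the 10 were called in each region, 4 higher and 2 lower in corpus and 5 higher and 1 lower in antrum, while the share of all tested genes called also went up, to 43.5% and 40.8%.

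**Figure D1:**
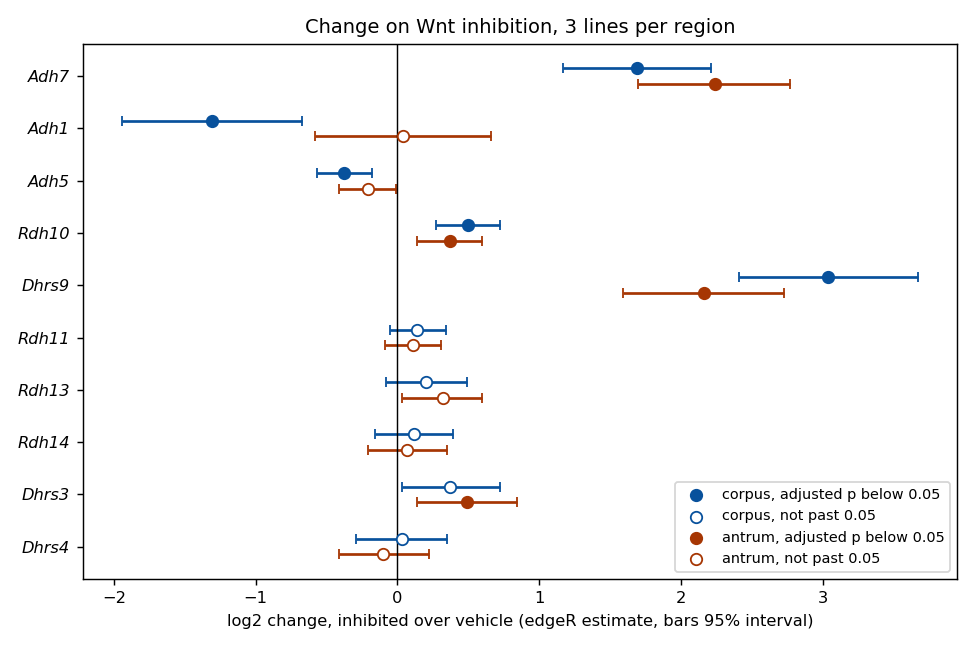
Log2 change (x axis) of each of the 10 genes between inhibited and vehicle organoids, in corpus and antrum, with the 95% interval; filled points passed an adjusted p of 0.05. Dhrs9 (3.04 and 2.16) and Adh7 (1.69 and 2.24) lie farthest to the right in both regions, and Adh1 lies at -1.31 in corpus and 0.04 in antrum.

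Adh7, the stomach alcohol dehydrogenase that oxidises retinol with high efficiency, was at 108, 92.1 and 82.6 CPM in the corpus vehicle libraries of lines 8025, 8026 and 8028 and at 353, 324 and 235 CPM after inhibition. In antrum it was at 45.6, 51 and 85.5 CPM in vehicle and 251, 319 and 289 CPM in inhibited libraries. The groups did not overlap in either region, and line 8028 had the smallest ratio in both (2.84-fold and 3.38-fold against 3.28-fold to 6.25-fold in the others). Adh7 rose by a log2 change of 1.69 ± 0.226 (SE, n = 3 lines) in corpus, 3.23-fold, with an adjusted p of 0.000233 by edgeR's quasi-likelihood test, and by 2.24 ± 0.232 in antrum, 4.71-fold (adjusted p = 3.94e-05). In each of 19 corpus and 20 antral alternative analyses the rise kept its direction and its call, with a log2 change of 1.53 to 1.88 in corpus and 2.04 to 2.57 in antrum.

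The summed surface pit markers moved with Adh7, with most of their counts from Tff1 (437305 over all 12 libraries, against 8585 for Muc5ac to 89862 for Mucl3). The 5 pit genes (Muc5ac, Tff1, Gkn1, Gkn2 and Mucl3, secreted products of surface mucous cells) were all detected and summed to 225 to 365 CPM in corpus vehicle and 1980 to 3760 CPM in corpus inhibited libraries, and to 260 to 320 and 3480 to 4690 CPM in antrum. In bulk RNA, more cells of a type and more RNA per cell cannot be told apart, and the part of pit cells in the change of Adh7, Dhrs9 or Rdh10 was not tested. Over the 12 libraries the log2 CPM of Adh7 ran most like that of Sult1c2, a cytosolic sulfotransferase (Pearson r = 0.995), then Tbc1d15 (0.992), Eepd1 (0.989), Aldh3a1, an aldehyde dehydrogenase of epithelia (0.989), and the cytochrome P450 Cyp2c65 (0.988), out of 11030 genes with a mean of at least 5 CPM. These libraries share treatment groups, so the values describe a pattern across 4 groups. Aldh3a1 averaged 146 and 800 CPM in corpus and 66.1 and 653 CPM in antrum, vehicle before inhibited, while Tbc1d15 moved over a narrow range, from 71.5 to 88.3 CPM and from 63.7 to 89.3 CPM. Among the 10 genes, the likeness to Adh7 was highest for Dhrs3 (r = 0.82), Dhrs9 (0.77) and Rdh10 (0.75) and lowest for Adh5 (-0.77).

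Adh1, the classical alcohol dehydrogenase that clears ethanol and excess retinol, took the opposite course in corpus. Its corpus vehicle values were 75.9, 64.9 and 41.8 CPM in lines 8025, 8026 and 8028, and its inhibited values 25.3, 26.8 and 21.8 CPM. The corpus groups did not overlap, every line fell, and the inhibited lines lay much closer together than the vehicle lines. Adh1 fell by 1.31 ± 0.274 on the log2 scale (2.47-fold lower, adjusted p = 0.00397 by edgeR), and the call held in all 19 alternatives. In antrum Adh1 was at 42.8, 30.3 and 59.9 CPM in vehicle and 47.9, 33.6 and 55.2 CPM in inhibited libraries, in the same order of lines. These groups overlapped, with a log2 change of 0.04 ± 0.269 (95% interval -0.58 to 0.66, adjusted p = 0.926). The order of lines was kept in antrum: line 8028 highest and 8026 lowest under both treatments.

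Chief cell markers moved with Adh1 in corpus but also in antrum, where Adh1 did not pass the test. The 5 chief genes summed to 140 to 373 CPM in corpus vehicle and 25.3 to 30.7 CPM in corpus inhibited libraries, and to 95.2 to 138 and 20.2 to 43.3 CPM in antrum, with Lipf at 0 in all 12 libraries and most of the sum from Pgc and Cblif. Their part in the fall of Adh1 was not tested. The difference between the regional responses of Adh1 was 1.35 ± 0.383 on the log2 scale (antrum minus corpus, 95% interval 0.46 to 2.23), with an unadjusted p of 0.00471 and an adjusted p of 1 in the edgeR fit. With line as a block within region the value was 1.33 and the adjusted p 0.0454, the only one of 28 alternatives in which it passed, and 0.0433% of all tested genes were called in that fit.

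Adh5, which mainly oxidises glutathione-bound formaldehyde and is expressed in nearly all tissues, changed least of the 3 in corpus. In antrum Adh1 changed less than Adh5. It was at 89.2, 93.5 and 90.6 CPM in corpus vehicle and 64.2, 64.9 and 81.6 CPM in corpus inhibited libraries of lines 8025, 8026 and 8028. In antrum it was at 81.3, 86.4 and 87 CPM in vehicle and 71, 77.4 and 72.1 CPM in inhibited libraries. Neither pair of groups overlapped. Adh5 fell by 0.38 ± 0.0861 on the log2 scale in corpus (1.3-fold lower, adjusted p = 0.00652 by edgeR), a call that was lost without both corpus libraries of line 8025 (adjusted p = 0.0516) or of line 8026 (0.0937). With total counts as the scale the change was -0.53, against a median of -0.193 over all genes. The antral value of -0.21 ± 0.0862 missed the threshold (adjusted p = 0.0914) and passed it with line as a block (0.0458), with upper quartile scaling (0.0254) and in a fit to the 6 antral libraries alone (0.036).

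**Figure D2:**
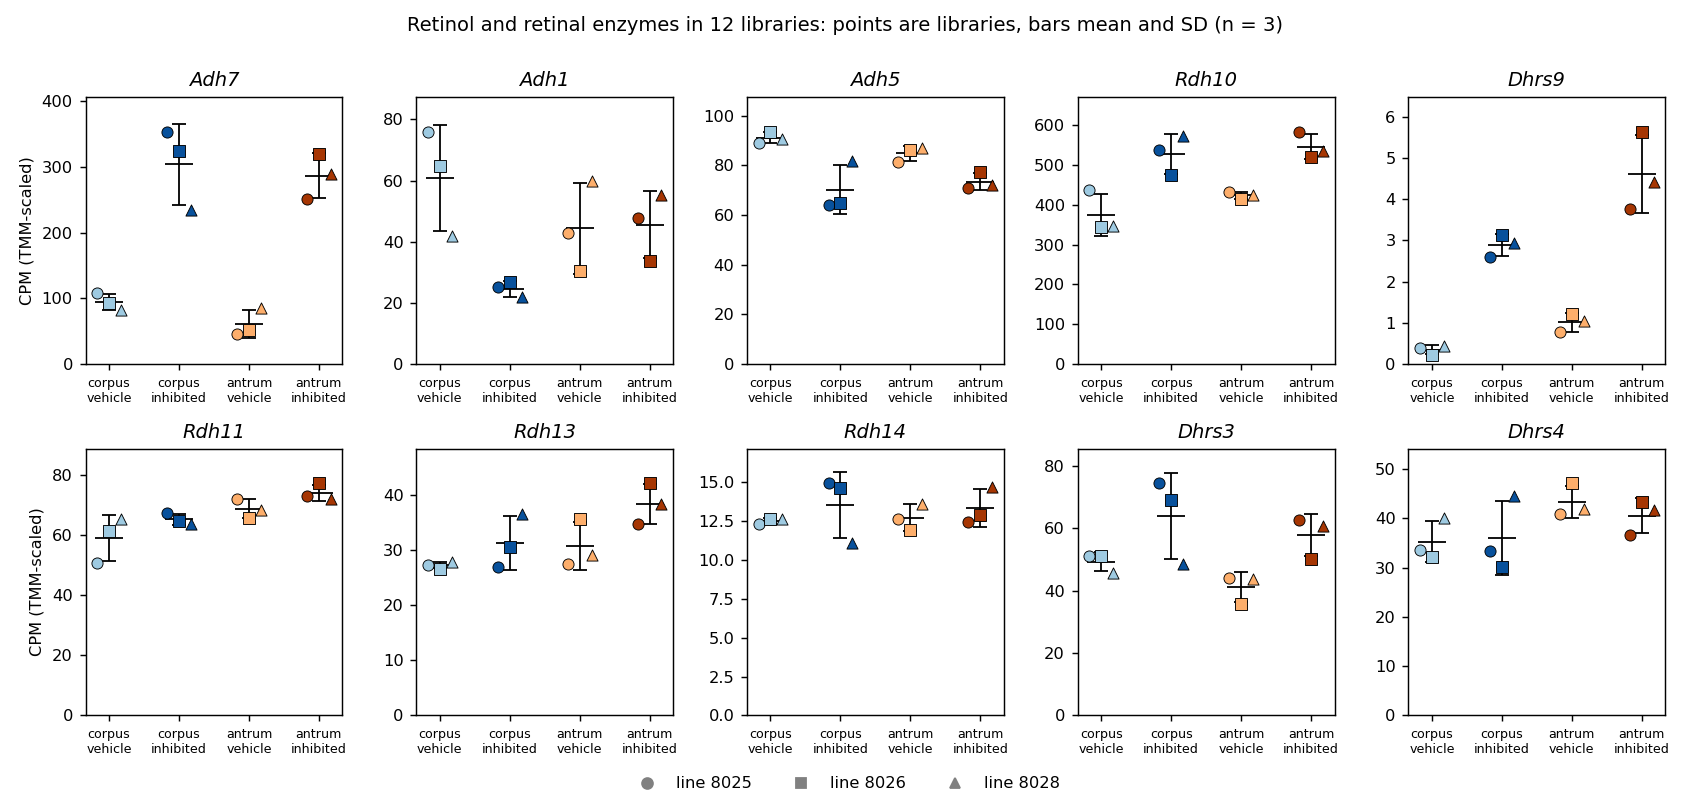
CPM of each of the 10 genes (y axis, from 0, a separate scale per gene) in the 4 groups, one point per library with the mark giving the line, and the mean with SD (n = 3). The inhibited libraries of Adh7 (235 to 353 CPM) all lie above its vehicle libraries (45.6 to 108 CPM), while Adh1 is low only in the corpus inhibited group (21.8 to 26.8 CPM).

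Adh7, Adh1 and Adh5 lie in one cluster on chromosome 3, which allows neighbours to be compared. In GENCODE M21 coordinates on GRCm38, Adh7 spans chr3:138217760-138233382, Adh1 chr3:138260991-138290698 and Adh5 chr3:138443093-138455499. All 6 protein-coding genes of the 238 kb interval are on the plus strand, and 27.6 kb separate the end of Adh7 from the start of Adh1. Between Adh1 and Adh5 lie Adh6a, Adh6b and Adh4, another retinol-active alcohol dehydrogenase, with 36, 1 and 0 counts summed over all 12 libraries, against 58820 for Adh7, 14422 for Adh1 and 25927 for Adh5. Adh7, Adh1 and Adh5 thus carried nearly all protein-coding counts of the interval, and in corpus the adjacent Adh7 and Adh1 changed in opposite directions. Exons of Adh7 overlap the antisense gene 0610031O16Rik, which had 38 counts in corpus vehicle, 94 in corpus inhibited, 7 in antral vehicle and 90 in antral inhibited libraries, and exons of Adh1 overlap the antisense gene Gm16559 with 18, 5, 7 and 9 counts. No source used here says whether counting used strand, and reads of these antisense genes cannot be told apart from those of Adh7 and Adh1, and both were far below them. Of 50-base stretches of the transcripts, 2.11% of those of Adh1, 1.66% of those of Adh7 and 0.31% of those of Adh5 also occurred in another gene. The other members are scattered: Rdh10 at chr1:16105774-16133734, Dhrs9 at chr2:69380445-69404533, Dhrs3 at chr4:144892827-144928209, Rdh13 at chr7:4424770-4445649, Rdh11 at chr12:79174337-79192293, Rdh14 at chr12:10390772-10395562 and Dhrs4 at chr14:55478758-55490340, with Rdh11 and Rdh13 on the minus strand.

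**Figure D3:**
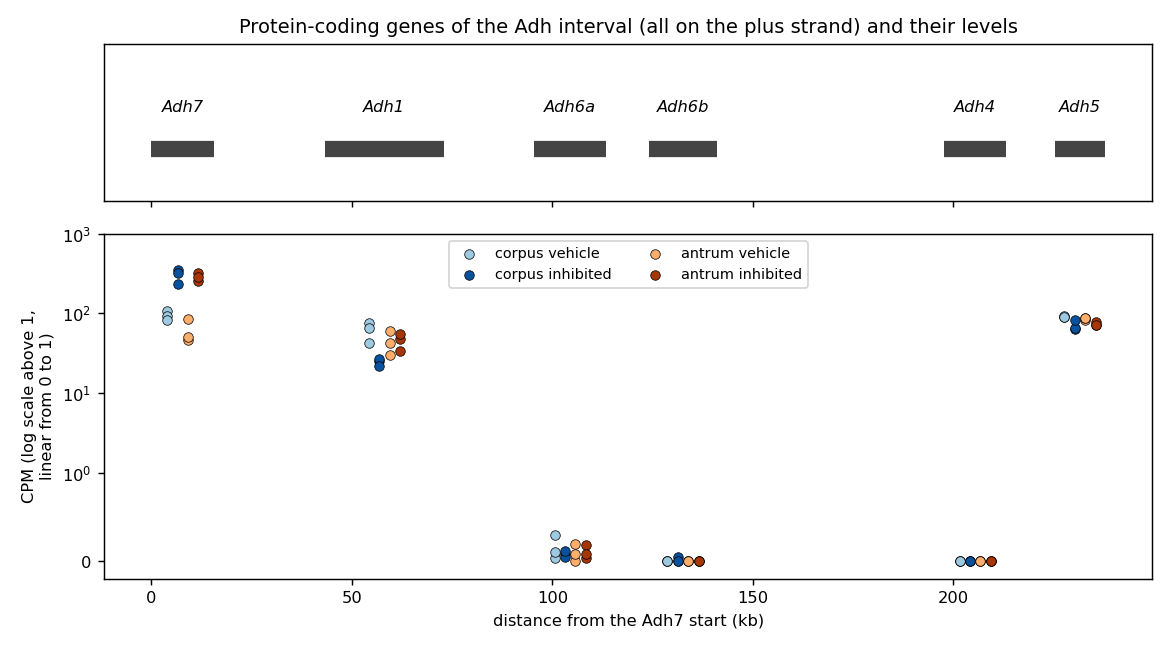
Upper panel, the 6 protein-coding genes of the interval by distance from the Adh7 start (x axis, kb); lower panel, their CPM in each of the 12 libraries (y axis, linear from 0 to 1 and log above), coloured by group. Adh7, Adh1 and Adh5 lie above 20 CPM in every library, and Adh6a, Adh6b and Adh4 lie near or at 0.

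Dhrs9, a short-chain dehydrogenase that oxidises retinol and 3-alpha-hydroxysteroids, had the largest corpus ratio and the lowest level of the 10 genes. Its counts were 13, 7 and 13 in the corpus vehicle libraries of lines 8025, 8026 and 8028 (0.385, 0.223 and 0.433 CPM) and 63, 73 and 78 in the inhibited ones (2.6, 3.13 and 2.93 CPM). In antrum they were 13, 37 and 25 in vehicle (0.767, 1.22 and 1.04 CPM) and 107, 151 and 113 in inhibited libraries (3.77, 5.63 and 4.42 CPM). All 12 values lay above the floor of 3 counts, and the groups did not overlap in either region. Dhrs9 rose by a log2 change of 3.04 ± 0.274 in corpus, 8.22-fold (adjusted p = 1.64e-05 by edgeR), and by 2.16 ± 0.247 in antrum, 4.47-fold (adjusted p = 7.22e-05). Both calls held in every alternative run (19 in corpus, 20 in antrum), at log2 changes of 2.75 to 3.24 and 1.92 to 2.35. The difference between the regional responses was -0.88 ± 0.367 (95% interval -1.73 to -0.03), with an unadjusted p of 0.0349 and an adjusted p of 1.

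Rdh10, the retinol dehydrogenase on which retinoic acid synthesis in the embryo depends, was the most abundant and rose by a small amount. Its corpus values were 436, 343 and 346 CPM in vehicle and 538, 474 and 573 CPM in inhibited libraries of lines 8025, 8026 and 8028. In antrum they were 433, 414 and 424 CPM in vehicle and 583, 521 and 535 CPM in inhibited libraries. Neither pair of groups overlapped, and the 3 antral vehicle libraries lay close together in spite of their unequal ribosomal RNA-like shares. Rdh10 rose by 0.50 ± 0.0995 in corpus, 1.41-fold (adjusted p = 0.00299 by edgeR), in all 19 alternatives. In antrum it rose by 0.37 ± 0.0994, 1.29-fold (adjusted p = 0.0165), a call that 6 of 20 alternatives lost: total counts as the scale (0.0731), without the inhibited library of line 8025 (0.0681), with line 8025, 8026 or 8028 dropped whole (0.0955, 0.0781 and 0.0779), and with antral vehicle 8025 and 8028 dropped together (0.116). The log2 change stayed between 0.3 and 0.4 in all 20.

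Of the 5 short-chain genes known mainly as retinal reductases, Dhrs3 passed in antrum and none passed in corpus. Dhrs3, the reductase that retinoic acid itself induces and that works in a complex with Rdh10, was at 51, 51.1 and 45.8 CPM in corpus vehicle and 74.4, 69 and 48.5 CPM in corpus inhibited libraries of lines 8025, 8026 and 8028. In antrum it was at 44.2, 35.8 and 43.9 CPM in vehicle and 62.7, 50.1 and 60.9 CPM in inhibited libraries. The corpus groups overlapped because line 8028 moved little, and the antral groups did not. Dhrs3 rose in antrum by 0.49 ± 0.151 on the log2 scale (1.41-fold, adjusted p = 0.0302 by edgeR), with nearly the same ratio in each line (1.42, 1.4 and 1.39), and its corpus change of 0.37 ± 0.15 (95% interval 0.03 to 0.72) did not pass (adjusted p = 0.0806). The antral call was lost in 8 of 20 alternatives: upper quartile scaling (0.0579), without the inhibited library of line 8025 (0.104) or 8028 (0.087), without the vehicle library of line 8026 (0.0969), with line 8025, 8026 or 8028 dropped whole (0.134, 0.0796 and 0.113), and with antral vehicle 8025 and 8028 dropped together (0.0642). The corpus change passed with line as a block (0.0064), with DESeq2 (0.0473) and without the inhibited library (0.00161) or both libraries (0.0067) of line 8028. The fits without those libraries called 6888 of 16528 and 6010 of 16355 tested genes in corpus.

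Rdh11, Rdh13, Rdh14 and Dhrs4 passed in neither region. Rdh11, a retinal reductase of the endoplasmic reticulum, ran from 50.6 to 65.4 CPM in corpus vehicle, 63.7 to 67.3 CPM in corpus inhibited, 65.7 to 72 CPM in antral vehicle and 72.1 to 77.1 CPM in antral inhibited libraries. Its antral groups did not overlap, but the difference of 0.11 (95% interval -0.09 to 0.31) was small. The mitochondrial Rdh13 changed by 0.20 (-0.08 to 0.49) in corpus and 0.32 (0.03 to 0.6, adjusted p = 0.0773) in antrum, where it was higher in each of the 3 lines. The antral value passed with line as a block (0.0126), with DESeq2 (0.0444), in the 6 antral libraries alone (0.0497) and without the vehicle library of line 8026 (0.0208). Rdh14, a reductase related to Rdh11, stayed between 11.1 and 14.9 CPM in all 12 libraries, and Dhrs4, a peroxisomal carbonyl and retinal reductase, between 30.2 and 47.1 CPM. Their log2 changes were 0.12 (-0.16 to 0.39) and 0.07 (-0.21 to 0.35) for Rdh14, and 0.03 (-0.29 to 0.35) and -0.10 (-0.41 to 0.22) for Dhrs4, in corpus and antrum. Without the inhibited library of line 8028 the corpus change of Rdh14 passed (0.045), as did that of Rdh11 without both corpus libraries of that line (0.0398). Of all tested genes, 6888 of 16528 and 6010 of 16355 were called in these fits.

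Per kilobase of exon, which allows levels to be compared between genes, Rdh10 was the highest in every group and Adh7 overtook the rest only after inhibition. Rdh10 averaged 90.2 CPM per kb in corpus vehicle, 127 in corpus inhibited, 102 in antral vehicle and 131 in antral inhibited libraries, or 39.8%, 41.4%, 45.2% and 40.9% of the summed level of the 10 genes. Adh7 went from the third place to the second in corpus, from 10.4% to 11.5% of the sum in the 3 vehicle libraries to 20.8% to 28.8% in the 3 inhibited ones. In antrum it went from the fifth place to the second, from 5.4% to 9.42% of the sum to 20.8% to 26.4%. Adh1 went from the second place to the seventh in corpus (8.88% to 13.7% of the sum, then 3.26% to 4.02%). Dhrs9 was last in every group, at most 0.414% of the sum in any library. Together the 10 genes came to 211 to 248 CPM per kb in vehicle and 298 to 326 CPM per kb in inhibited libraries, without overlap.

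Ratios between members were taken within a library and so do not depend on its scaling. They restate the values given above and are not separate evidence. Adh7 over Adh1 per kb was 0.835 to 1.17 in corpus vehicle and 6.36 to 8.25 in corpus inhibited libraries, and 0.625 to 0.993 and 3.08 to 5.61 in antrum. Adh7 over Rdh10 was 0.262 to 0.295 and 0.45 to 0.751 in corpus, and 0.115 to 0.222 and 0.474 to 0.674 in antrum. The ratio of the oxidising Rdh10 to its partner Dhrs3 overlapped between treatments in both regions, at 4.71 to 6.03 and 4.83 to 8.31 in corpus and at 6.8 to 8.16 and 6.2 to 7.31 in antrum.

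**Figure D4:**
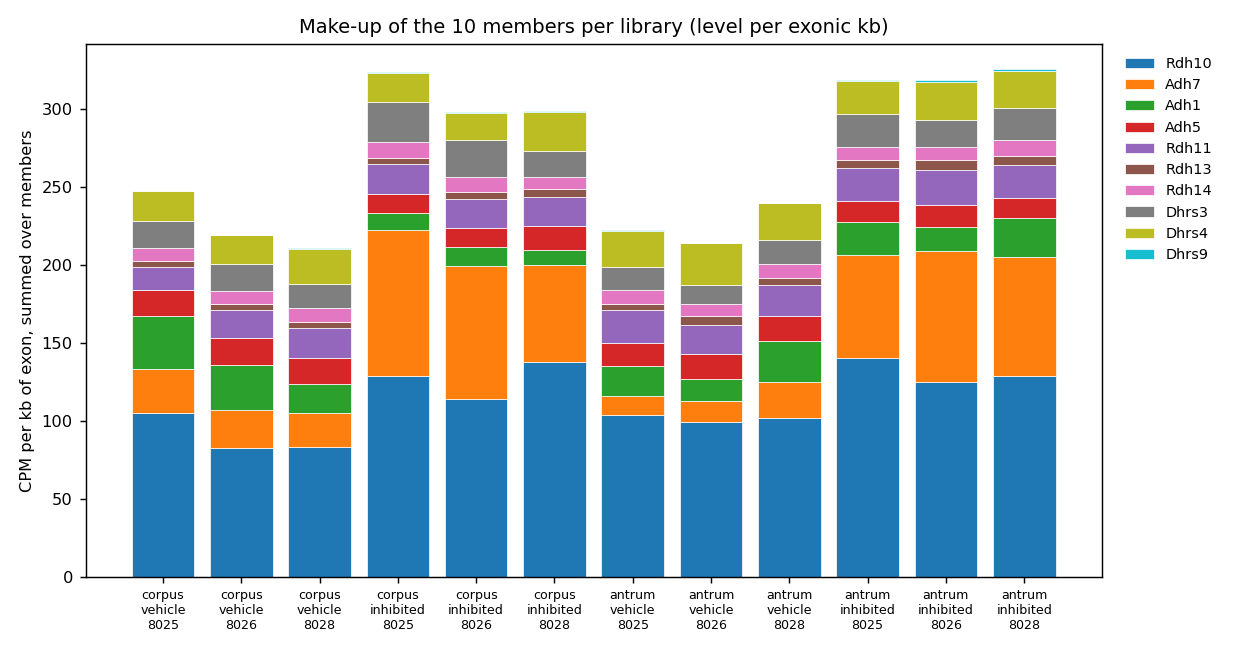
CPM per kb of exon (y axis) of the 10 genes stacked for each of the 12 libraries, grouped by region and treatment. Stacks reach 211 to 248 in vehicle and 298 to 326 in inhibited libraries, with Rdh10 the largest segment throughout. The Adh7 segment is 12 to 28.5 in vehicle and 62.1 to 93.2 in inhibited libraries.

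Between antrum and corpus none of the 10 genes passed the edgeR test under either treatment, where 0.198% of all tested genes passed in vehicle (0.0681% higher in antrum, 0.13% lower) and 0.0619% after inhibition (0.0495% higher, 0.0124% lower). At an unadjusted p under 0.05 there were 3 in vehicle (Adh7, Rdh11 and Dhrs9), beside 15.4% of all tested genes, and 3 after inhibition (Adh1, Rdh13 and Dhrs9), beside 9.24%. By DESeq2 there was 1 in vehicle, Dhrs9, beside 3.14% of all genes, and 0 after inhibition, beside 0.923%. By limma-voom there were 0 in each, beside 0.13% and 0.0805%. Dhrs9 was 2.94-fold higher in antral than in corpus vehicle libraries, a log2 difference of 1.55 ± 0.291 with no overlap of the groups (adjusted p = 0.0672 by edgeR, 0.00225 by DESeq2, 0.0487 with no filter on low counts and 0.0199 without both corpus libraries of line 8028). Adh7 was 1.55-fold lower in antral vehicle libraries (log2 difference -0.63, 95% interval -1.15 to -0.11, adjusted p = 0.231), but its groups overlapped, since antral line 8028 at 85.5 CPM lay above corpus line 8028 at 82.6 CPM. After inhibition Adh7 was at 251 to 319 CPM in antrum and 235 to 353 CPM in corpus (log2 difference -0.09, 95% interval -0.59 to 0.42). Adh1 was then 1.85-fold higher in antrum (log2 difference 0.89 ± 0.273, adjusted p = 0.384), without overlap of the groups. The fit without both corpus libraries of line 8028 called 1080 of 16355 tested genes in vehicle and 2386 after inhibition. In it Dhrs4 also passed in vehicle (0.0321), and Rdh13 (0.0423) and Dhrs4 (0.0341) after inhibition. Rdh13 passed after inhibition without the corpus inhibited library of that line alone (0.0424), where 1883 of 16528 tested genes did.

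The test of whether the treatment response differed between regions called none of the 10 genes, where 0.00619% of all tested genes passed. Adh1 and Dhrs9 were the 2 members at an unadjusted p under 0.05, beside 3.95% of all tested genes. DESeq2 and limma-voom called 0 members, beside 0.0558% and 0.00619% of all genes. The interval for Adh7 was -0.18 to 1.27 around 0.54, for Rdh10 -0.45 to 0.2 around -0.13 and for Dhrs3 -0.37 to 0.61 around 0.12, all of which include 0.

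Other genes of retinoid metabolism were read from 4 lists. Over all tested genes, 30.9% were called in corpus (15.5% higher, 15.4% lower) and 29.7% in antrum (16.3% higher, 13.4% lower). Of 20 further retinol and retinal oxidoreductases 8 were tested, 3 were higher in corpus and 3 in antrum and none was lower (median log2 changes 0.74 and 0.2, beside -0.037 and -0.044 for all tested genes). They were the same genes, Akr1b8 and Akr1b3, aldo-keto reductases that can reduce retinal, and Hsd17b6, a retinol and hydroxysteroid dehydrogenase. Akr1b8 was at 273, 265 and 257 CPM in corpus vehicle and 671, 660 and 491 CPM in corpus inhibited libraries of lines 8025, 8026 and 8028, and rose by 1.20 ± 0.12 (adjusted p = 3.33e-05 by edgeR), with 1.36 ± 0.121 in antrum (1.38e-05). Akr1b3 rose by 0.27 ± 0.0667 (0.00892) and 0.28 ± 0.0669 (0.0078). Hsd17b6 had 12, 11 and 13 counts in corpus vehicle and 76, 53 and 18 in corpus inhibited libraries (adjusted p = 0.00378), and 2, 2 and 2 against 29, 31 and 13 in antrum (0.00361). Adh4, Rdh8 and Sdr16c6 had 0 counts in all 12 libraries.

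Downstream of retinal, 3 of 7 listed genes of retinal oxidation and retinoic acid breakdown were tested. In each region 1 passed, Aldh1a3, a retinal dehydrogenase that makes retinoic acid. A count of 1 in 3 is near the share of all tested genes called, 30.9% in corpus and 29.7% in antrum. Aldh1a3 rose by 1.64 ± 0.393 in corpus, from a mean of 4.9 to 15.3 CPM (adjusted p = 0.0086 by edgeR), and by 1.22 ± 0.399 in antrum, from 4.8 to 11.1 CPM (0.0393). The more abundant Aldh1a1, which has the same activity, was at 166 and 128 CPM in corpus and 109 and 86.3 CPM in antrum and did not pass (0.123 and 0.163). The median log2 change of the 3 was 0.67 in corpus and 0.62 in antrum, beside -0.037 and -0.044 over all tested genes. Among the receptors 5 of 6 were tested, with 1 higher and 1 lower in corpus and 2 higher in antrum. Rxra, the shared partner of the retinoic acid receptors, rose in both regions (0.51 ± 0.0845, adjusted p = 0.000889, and 0.58 ± 0.0852, adjusted p = 0.000427, by edgeR). Rxrb changed by -0.19 in corpus (0.0347) and by -0.15 in antrum, where it did not pass (0.0894). Rarg changed by 0.33 in antrum (0.033) and by 0.26 in corpus, where it did not pass (0.0841). The median log2 change of the 5 was 0.18 in each region.

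Upstream, 15 of 20 genes of retinoid uptake, binding, storage and carotenoid cleavage were tested. In corpus 5 were higher and 3 lower, where 15.5% of all tested genes were higher and 15.4% lower. In antrum 7 were higher and 3 lower, where 16.3% and 13.4% of all tested genes were. The median log2 changes were 0.68 and 0.8, beside -0.037 and -0.044 over all tested genes. Stra6, the membrane receptor that takes retinol from its plasma carrier, was at 151, 158 and 121 CPM in corpus vehicle and 13.8, 13.8 and 14.4 CPM in corpus inhibited libraries of lines 8025, 8026 and 8028. In antrum Stra6 was at 167, 92.7 and 123 CPM and at 16, 8.43 and 13.8 CPM. It fell by 3.36 ± 0.25 in corpus (adjusted p = 5.1e-06 by edgeR) and fell by 3.32 ± 0.251 in antrum (5.22e-06). Rbp4, the plasma retinol carrier, and Scarb1, a lipid and carotenoid receptor, were also lower in both regions, Rbp4 at log2 changes of -0.90 (0.00272) and -1.02 (0.00111) and Scarb1 at -0.27 (0.00249) and -0.32 (0.000915).

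The intracellular retinol binders Rbp2 and Rbp7 rose in both regions. Rbp2, which carries retinol in intestinal epithelium, had 5 counts in each corpus vehicle library and 66, 52 and 204 in the inhibited ones of lines 8025, 8026 and 8028 (adjusted p = 0.000121 by edgeR), and 1, 4 and 0 against 224, 282 and 233 in antrum (2.39e-05). Its relative Rbp7 had 16, 24 and 15 against 98, 127 and 106 counts in corpus (5.26e-05) and 4, 3 and 3 against 87, 108 and 50 in antrum (1.85e-05). Fabp5, which can deliver retinoic acid to the nucleus, rose by 2.04 ± 0.235 in corpus (mean 65.4 to 270 CPM, adjusted p = 8.71e-05 by edgeR). Its antral rise was 1.9 ± 0.234 (mean 82.3 to 307 CPM, 0.000134). In antrum Ces1f, a carboxylesterase, rose by 2.85 ± 0.52 (0.00175), and its corpus change of 1.2 ± 0.454 did not pass (0.0668).

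**Figure D5:**
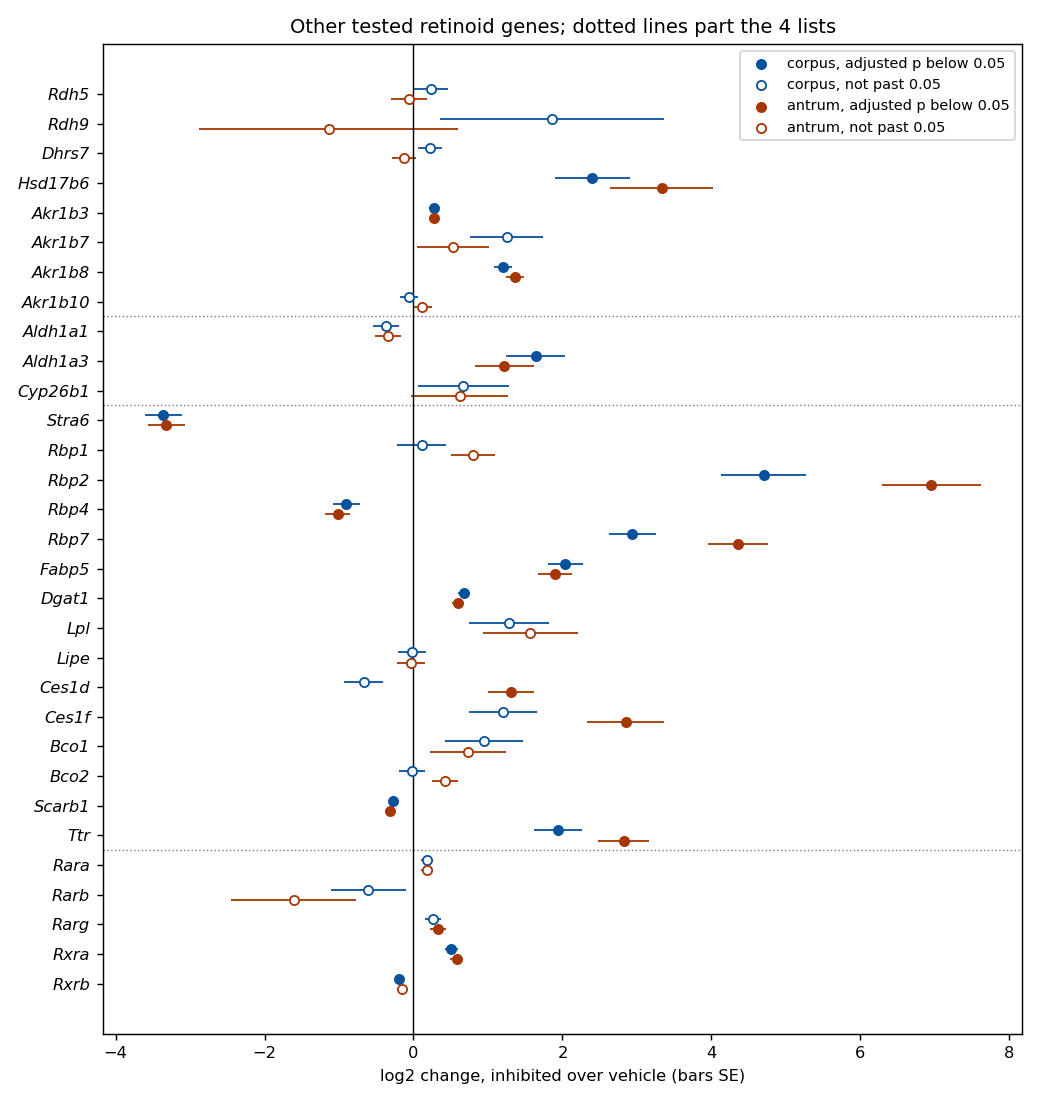
Log2 change between inhibited and vehicle organoids (x axis) with its SE for the tested genes of the 4 lists, which dotted lines separate, in corpus and antrum; filled points passed an adjusted p of 0.05. Stra6 lies farthest to the left (-3.36 and -3.32) and Rbp2 farthest to the right (4.7 and 6.95).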

How the data were processed

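PolyA RNA was sequenced from 12 libraries. Per the submitters' processing notes, cutadapt 2.3, FastQC 0.11.8, STAR 2.7.8a and RSEM 1.3.3 were used with GRCm38. The authors deposited expected counts per gene from RSEM, which need not be whole. Annotation release and strand setting: not given in the sources used here.

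Expected counts were rounded, and 5 transgene rows (2 counts) of 55426 were left out. Genes passing edgeR's filterByExpr by group (16152) were fitted over all 12 libraries without a block (edgeR 4.0.16 in R 4.3.3, TMM, robust quasi-likelihood, 8 residual degrees of freedom, two-sided, Benjamini-Hochberg threshold 0.05). Standard errors are the log2 change over the root of F, and intervals are 95%. CPM uses TMM-scaled totals, and CPM per kb divides by the union of GENCODE M21 exons. Likeness to Adh7 is the Pearson correlation of log2 CPM with a prior count of 2. The fit was run on simulated counts with the same spread for every gene and no line effect, so that run does not cover the line differences seen here. Tried as alternatives: scaling by RLE, upper quartile or totals, 2 filters, DESeq2 1.42.0, limma-voom 3.58.1, blocks, subsets, left-out libraries and lines, and left-out ribosomal RNA-like genes. No replicates agreed within sampling noise (chi-square over its degrees of freedom, 10.0 to 280).

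The members and lists were chosen with earlier results of these data known. Named were all 10 members, up to 3 genes per direction and list with the largest change among those called, Axin2 and Lgr5, and the 5 genes most like Adh7. Aldh1a1, genes at 0 counts, neighbours in the Adh interval and marker genes were named outside this rule, after their values were seen. The same line was treated both ways within a region, and deviations from the group means correlated for every such pair (r = 0.157 to 0.544), so line numbers pair libraries within a region. Across regions r was 0.133 in vehicle and 0.277 in inhibited libraries for number 8025. It was -0.104 to -0.007 for 8026 and 8028, so pairing by number across regions is not settled.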

Additional observations from a re-analysis of the deposited data

How the results depend on the processing

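None of the called member changes, 5 in corpus and 4 in antrum, reversed direction in an alternative. Some that were not called changed sign, such as Adh1 in antrum (log2 change -0.15 to 0.59) and Dhrs4 in corpus (-0.12 to 0.16). With line as a replicate block within region, member calls were 6 in corpus and 6 in antrum (beside 7022 and 6594 of 16152 genes, 43.5% and 40.8%) and 1 (Adh1, adjusted p = 0.0454) for the difference between regional responses, for which 7 genes were then called instead of 1 and DESeq2 called 9. With the line number as a replicate block across regions, 69 genes instead of 32 differed between regions in vehicle and 37 instead of 10 after inhibition. There were 0 members in either, and whether numbers pair libraries across regions is not settled. The vehicle count was also 17 with RLE, 18 with upper quartile, 61 with total counts, 68 with no filter, 497 with DESeq2, 21 with limma-voom, 18 in those 6 libraries alone and 2 with antral vehicle 8025 and 8028 dropped together. Its member count was 1 (Dhrs9) with no filter and with DESeq2. The count after inhibition was 3 with upper quartile, 3 with total counts, 16 with no filter, 149 with DESeq2 and 0 in those 6 libraries alone. Of the 32 vehicle calls 34.4% were higher in antrum, against 47.1% with RLE, 50% with upper quartile and 11.5% with total counts, and of the 10 after inhibition 80%, against 100% with upper quartile and 66.7% with total counts. Leaving out a library or both libraries of a line gave 2550 (corpus line 8026) to 6888 genes (without its inhibited library of line 8028) in corpus around 4985, and 2710 (antral line 8025) to 4207 in antrum around 4794, with 4 to 7 and 2 to 4 members. It gave 1 (without corpus vehicle 8025) to 1080 genes (without corpus line 8028) and 0 to 2 members for the regions in vehicle, 0 to 2386 (without corpus line 8028) and 0 to 2 after inhibition, and 0 to 5 genes and 0 members for the difference of responses. Without both antral vehicle libraries of high ribosomal RNA-like share, 2740 genes and 2 members were called in antrum. These alternatives leave fewer libraries. For the others the cause was not tested. Depth limits Dhrs9 in vehicle libraries, at 7 to 37 counts each.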
